A study of Rattus norvegicus with 8 samples.

Results

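The complement components and regulators described here are 9 genes, C1qa, C1qb, C1qc, C1r, C1s, C2, C3, Serping1 and C5ar1, measured in the dentate gyrus (DG) of ovariectomized (OVX) rats after status epilepticus (SE). They were found as the non-control spots that carry these gene names, which gave 13 of the 43379 non-control spots of the array and 9 of its 35250 gene names. All rats were adult female Sprague-Dawley rats, and all had their ovaries removed and underwent SE induced by kainic acid, an excitotoxic glutamate analogue. The COS group (castrated, oil-injected, SE) and the CES group (castrated, E2-replaced, SE) held 4 rats each, and E2 replacement was by 17β-estradiol benzoate. The sample records give 4 doses of 2 μg of estradiol 24 h apart, 2 of them before SE and 2 after it, with kainic acid at 16 mg/kg and pentobarbital ending SE after 5 h. The methods of the study differ from these records on the dose of kainic acid, the agent that ended SE and the time of the injections and of tissue collection, and nothing in the data tells these accounts apart. The non-SE groups were not analysed here, so no value below says what SE itself did to a gene. Each rat is 1 sample of total RNA from dissected DG, labeled with Cy3 (replicates 1 and 3) or Cy5 (replicates 2 and 4), and each of the 4 arrays carried 2 rats of the same group.

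Complement is a cascade of blood and tissue proteins that tags cells and debris for removal. In the classical pathway C1q binds its target and switches on the proteases C1r and C1s, which cleave C4 and C2 into an enzyme that splits C3. Fragments of C3 coat the target, and the small fragments of C3 and C5 call in and activate myeloid cells. In the brain microglia are the main source of C1q, astrocytes and microglia make C3, and the system is known for tagging synapses for removal by microglia.

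Of the 9 genes, 4 (C1qa, C1qc, C1s and Serping1) were read by 2 probes of 60 bases and 5 by a single probe. The probes of C1qa, C1qb and C1qc lie within a short stretch of chromosome 5 of rn4, those of C1r and C1s within a short stretch of chromosome 4, those of Serping1 on chromosome 3 and that of C2 on chromosome 20. The probe of C3 lies on sequence that rn4 does not place on a chromosome, and the files give no position for that of C5ar1. The pairs of C1qa, C1qc and C1s are printed here because each reads its transcript in separate windows and so measures the same gene in duplicate in every rat. Capitals mark triplets that begin with GG and recur every 9 bases, which is how the glycines of a collagen-like stalk are encoded. Only the first C1qc probe holds such a run, with 7 of 7 positions filled.

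C1qc, chr5:155658964-155659023: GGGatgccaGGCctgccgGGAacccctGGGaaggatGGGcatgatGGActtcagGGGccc
C1qc, chr5:155656638-155656697: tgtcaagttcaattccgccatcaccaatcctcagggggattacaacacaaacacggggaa
C1qa, chr5:155662767-155662826: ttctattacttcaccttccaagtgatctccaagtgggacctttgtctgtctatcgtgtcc
C1qa, chr5:155662578-155662637: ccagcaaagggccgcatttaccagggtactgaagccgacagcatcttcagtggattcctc
C1s, chr4:160737164-160737223: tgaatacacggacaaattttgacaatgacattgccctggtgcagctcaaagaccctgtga
C1s, chr4:160736725-160736784: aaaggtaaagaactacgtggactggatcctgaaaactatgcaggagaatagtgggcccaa

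All 6 positions are on the minus strand of rn4. The members of a pair differed little in the result: CES minus COS on the log2 scale was −1.89 and −1.70 for the C1qc probes, −1.03 and −0.77 for the C1qa probes, −1.35 and −1.51 for the C1s probes and −0.99 and −1.34 for the Serping1 probes. The gap within a pair was therefore between 0.16 and 0.35.

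Each level below is the log2 of the background-subtracted signal relative to the median valid spot of the same dye in the array, where a spot is valid when its foreground is at least 2 times its local background. A level of 0 is thus the signal of that median spot, and levels of different genes are not set against each other because probes differ in affinity. Genes with no spot that was valid in every rat were not tested, and 20825 genes remained, all 9 complement genes among them. By the mark of the scanner software 8 of the 9 were also well above background in every rat, and C5ar1 was so in every COS rat and in 2 of 4 CES rats. Across the dyes the mark did not follow the level alone. For C5ar1, CES replicates 1 and 3 (Cy3, −1.76 and −1.68) lacked it and CES replicate 4 (Cy5, −2.12) had it. Whether the counts of marked rats given below reflect the dye was not tested.

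CES replicate 2 stands apart from the other CES rats and goes against its group. Across the 20825 genes it correlated with the COS rats at 0.974 to 0.983 and with the other CES rats at 0.954 to 0.964, whereas the other CES rats correlated with COS at 0.932 to 0.943 and with each other at 0.978 to 0.988. It was the highest CES rat for 9 of 9 complement genes, against 16.2% of all genes and 45.1% of the genes called lower in CES. For 8 of the 9, all but C5ar1, its level lay nearer the COS mean than the mean of the other CES rats. That was so for 48.2% of all genes and for 22.8% of the genes called lower in CES. Results are therefore given with and without this rat. It was singled out in these same data and is the highest CES rat for all 9 genes. Leaving it out thus widens each difference by construction, and the values without it are not separate evidence. Of the genes listed for dentate granule neurons, Snap25, Calb1, Neurod1 and C1ql2 were well above background in all 8 rats. Dsp was so in 5 rats and Prox1 and Tdo2 in 0 rats, and no probe for Rbfox3 was found.

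CES rats had less signal than COS rats for all 9 complement genes, and limma called all 9 lower (threshold 0.05 on the adjusted p). Of all genes tested 28.6% were called lower and 5.74% higher by the same rule, and 68.6% had a negative difference before any test. The median log2 difference of the 9 genes was −1.31, with a range from −0.86 for C1qa to −2.38 for C5ar1, while the median over all genes was −0.25. Levels in COS were thus 1.82 to 5.22 times those in CES. The difference of each complement gene lay below that of between 84.7% and 99.1% of all genes. Without CES replicate 2 the 9 genes were again called lower, with differences from −1.06 to −2.76 and a median of −1.62, and the median over all genes was −0.27 with 33.0% of genes called lower and 8.7% higher.

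**Figure D1:**
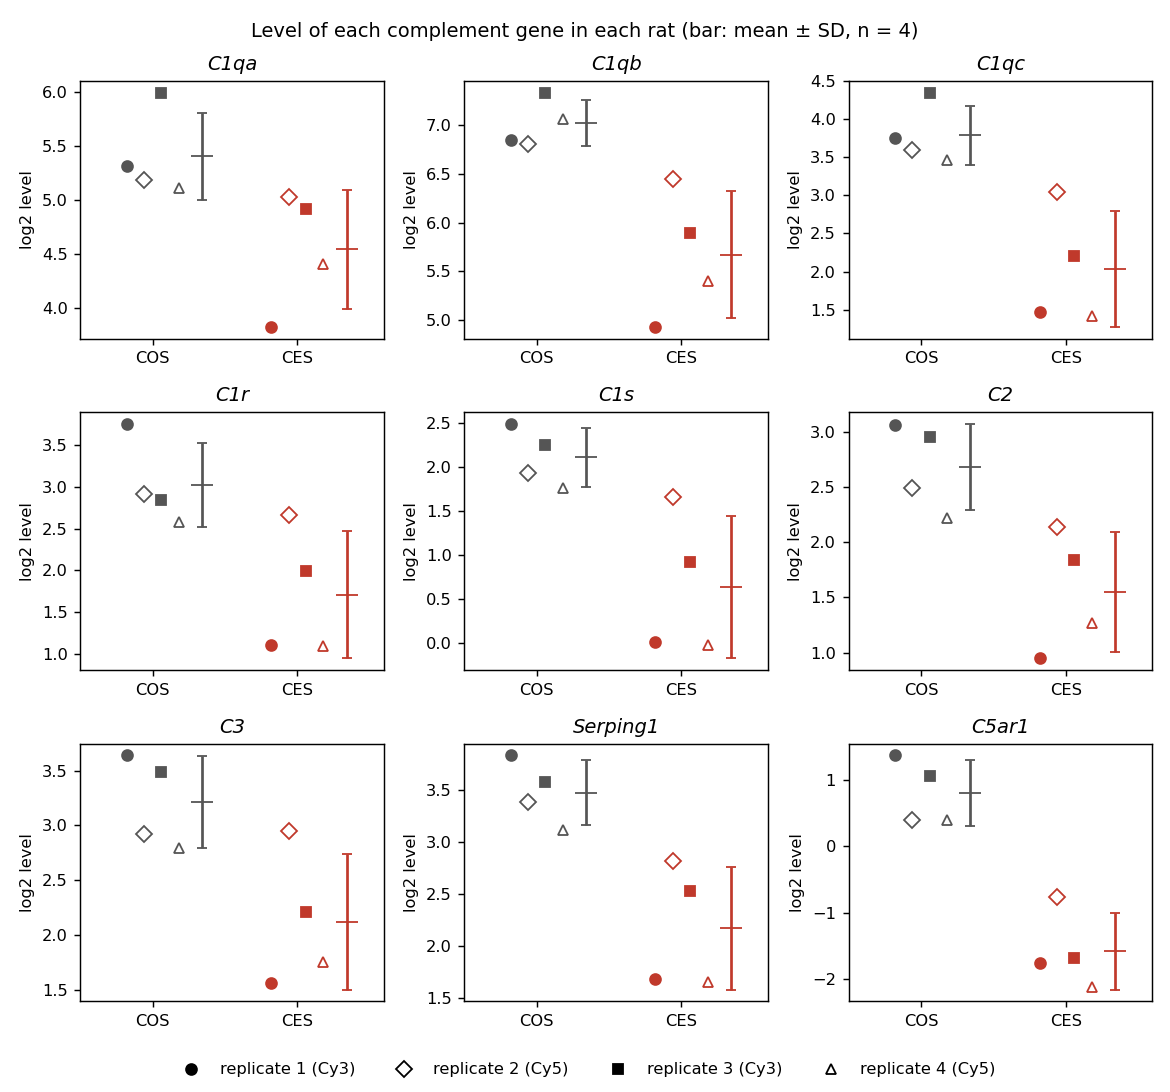
Log2 level of each of the 9 complement genes (vertical axis, 1 panel a gene) in each COS (grey) and CES (red) rat, with filled symbols for Cy3, open symbols for Cy5 and the bar at the mean ± SD (n = 4). The open red diamond, CES replicate 2, is the highest CES point in every panel, and in the panels of C1r and C3 it reaches into the range of COS.

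The 3 chains of C1q, the recognition molecule that starts the classical pathway, were all lower in CES than in COS, C1qc most and C1qa least. C1qa encodes the A chain. Its log2 level was 5.31, 5.18, 5.99 and 5.11 in COS replicates 1 to 4 and 3.82, 5.02, 4.91 and 4.40 in CES replicates 1 to 4. The lowest COS rat was 0.09 above CES replicate 2 on this scale, so the groups nearly touched. The difference of −0.86 (standard error 0.30, limma adjusted p = 0.0469) is the smallest of the 9 genes and the nearest to the threshold.

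C1qb, which encodes the B chain, stood at 6.85, 6.81, 7.33 and 7.06 in the COS rats and at 4.93, 6.45, 5.89 and 5.40 in the CES rats. No CES rat came up to a COS rat, and the mean was 7.02 ± 0.24 (SD, n = 4) in COS against 5.67 ± 0.65 (SD, n = 4) in CES. The log2 difference was −1.35 (standard error 0.30, limma adjusted p = 0.00877), a level 2.55 times higher in COS.

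For C1qc, the gene of the C chain, the levels were 3.75, 3.60, 4.35 and 3.47 in COS and 1.47, 3.05, 2.20 and 1.42 in CES. CES replicates 1 and 4 lay lowest and no CES rat reached the COS rats. The log2 difference of −1.76 (standard error 0.36, limma adjusted p = 0.00657) became −2.17 without CES replicate 2 (standard error 0.23, adjusted p = 5.37e-05).

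The chains of C1q assemble in equal numbers, and their measured transcripts did not differ between the groups by the same factor. The log2 ratio of C1qc to C1qa within a rat was −1.56, −1.58, −1.64 and −1.64 in the COS rats, a spread of 0.04 (SD, n = 4). In the CES rats the ratio as reported was −2.35, −1.97, −2.71 and −2.98, and all of them lay below all COS rats, CES replicate 2 included. This held in the 6 distinct alternative ways of computing the levels that change the ratio (6 others leave it as it is) and in 3 of the 4 pairings of single C1qc and C1qa probes. The ratios of C1qb to C1qa (1.34 to 1.95 in COS, 0.98 to 1.43 in CES) and of C1qc to C1qb (−3.59 to −2.99 in COS, −3.97 to −3.40 in CES) overlapped between the groups. These ratios were picked after the levels had been seen and were given no test.

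C1r and C1s, the serine proteases that C1q carries and activates, were both lower in CES. The C1r level was 3.75, 2.91, 2.84 and 2.58 in COS replicates 1 to 4, and the probe for it lies at chr4:160728630-160728689 (rn4, plus strand). In CES replicates 1 to 4 it was 1.11, 2.66, 1.99 and 1.10, so that CES replicate 2 lay above COS replicate 4 and the groups overlapped. The log2 difference was −1.31 (standard error 0.38, limma adjusted p = 0.0243), and −1.70 without CES replicate 2 (standard error 0.27, adjusted p = 7.49e-04).

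C1s stood at 2.49, 1.93, 2.25 and 1.76 in the COS rats and at 0.01, 1.66, 0.92 and −0.02 in the CES rats. The groups were separated by only 0.10, the distance from CES replicate 2 to COS replicate 4, while the other CES rats lay further below. The log2 difference was −1.47 (standard error 0.36, limma adjusted p = 0.0134). The log2 ratio of C1r to C1s within a rat ranged from 0.59 to 1.25 in COS and from 1.00 to 1.11 in CES, so the groups overlapped in it.

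C2, which C1s cleaves to supply the catalytic subunit of the classical C3 convertase, was at 3.06, 2.49, 2.95 and 2.22 in COS and at 0.95, 2.14, 1.84 and 1.27 in CES. Its probe lies at chr20:4071504-4071563 (rn4, plus strand). CES replicate 2 was 0.08 below COS replicate 4, and the remaining CES rats were below it. The log2 difference was −1.13 (standard error 0.29, limma adjusted p = 0.0151), or 2.19 times higher in COS.

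C3, the protein on which all complement pathways converge, had levels of 3.64, 2.92, 3.49 and 2.79 in COS and of 1.56, 2.95, 2.21 and 1.75 in CES. CES replicate 2 exceeded COS replicates 2 and 4, so the groups overlapped through this rat alone. The log2 difference of −1.09 (standard error 0.32, limma adjusted p = 0.0250) was −1.44 without it (standard error 0.21, adjusted p = 4.89e-04).

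Serping1 encodes C1 inhibitor, the serpin that inactivates C1r and C1s, and it differed in the same direction as the proteases it restrains. The levels were 3.84, 3.39, 3.58 and 3.12 in COS and 1.68, 2.82, 2.53 and 1.65 in CES, with no overlap. One of its probes spans an intron (chr3:67975119-67976458) and the other lies at chr3:67968828-67968887, both on the minus strand of rn4. The log2 difference was −1.31 (standard error 0.29, limma adjusted p = 0.00868) and −1.60 without CES replicate 2 (standard error 0.22, adjusted p = 3.26e-04).

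C5ar1, the receptor for the C5a fragment on myeloid cells, showed the widest gap of the 9 genes. Its level was 1.37, 0.39, 1.06 and 0.39 in the COS rats and −1.76, −0.76, −1.68 and −2.12 in the CES rats. The highest CES rat was still 1.15 below the lowest COS rat. CES minus COS came to −2.38 (standard error 0.31, limma adjusted p = 0.00309), 5.22 times higher in COS, and −2.76 without CES replicate 2 (standard error 0.18, adjusted p = 3.36e-06). CES replicates 1 and 3, both Cy3, were not well above background, although CES replicate 4 (Cy5) was so at a lower level. The size rests partly on weak spots, the dimmest of which had a foreground 2.67 times its background.

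**Figure D2:**
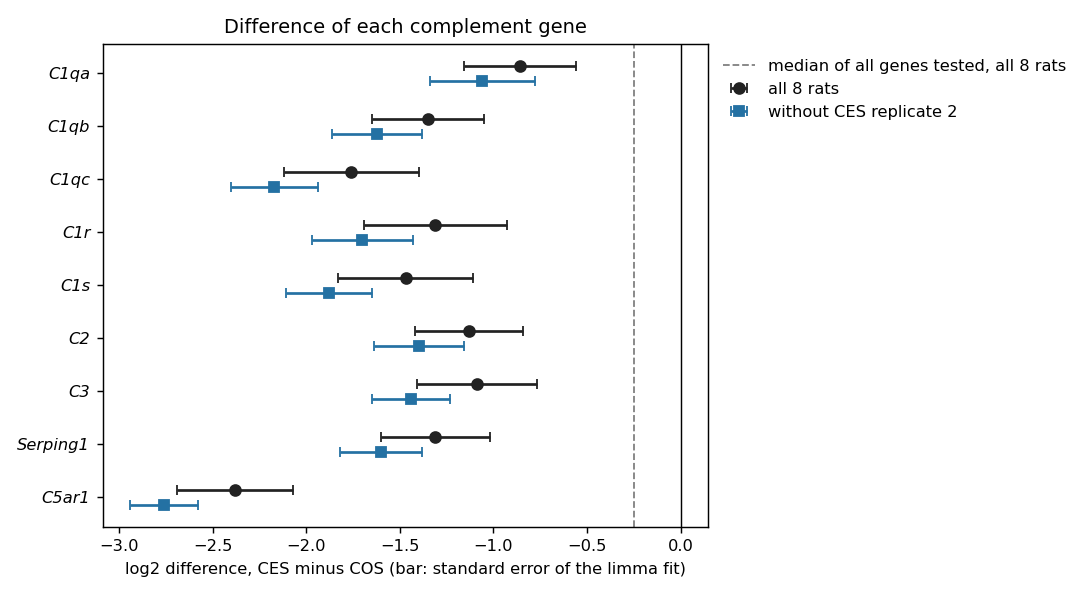
Log2 difference, CES minus COS (horizontal axis), of each complement gene with the standard error of the limma fit, for all 8 rats (black circles) and without CES replicate 2 (blue squares), and the median of all genes tested (dashed, −0.25). All points lie left of the dashed line, from −0.86 to −2.38 with all rats and from −1.06 to −2.76 without CES replicate 2.

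In all, no CES rat reached a COS rat for 7 of the 9 genes, against 19.7% of all genes, and for 1.55% of all genes and none of the 9 the groups were separated the other way. Measured against the median gene of the same rat, this held for 2 of 9 genes, C1qc and C5ar1, against 11.7% of all genes, because CES replicate 2 then reached the COS rats for the other 7. With CES replicate 2 left out it held for 9 of 9 genes on either scale, against 22.4% of all genes, or 19.6% relative to the median gene. Taken against the median gene, the 9 differences were −0.61 to −2.13 with all rats. Within each dye, where 2 rats of each group can be set side by side with no test, all 9 genes were lower in CES, by −1.29 to −2.94 in Cy3 and by −0.43 to −1.83 in Cy5, the dye of CES replicate 2.

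The calls depend on the scaling and on single rats. With loess and Aquantile normalization 2 of 9 genes were called lower (C1qc and C5ar1), where 9.43% of all genes were called lower and 14.5% higher, and the median of all genes moved to 0.05. That setting called 1964 genes lower and 3027 higher in all, against 5957 and 1195 here. Against that median, the median of the 9 was −1.03 after loess and −1.06 before it. The count was 1 without COS replicate 3, 4 without CES replicate 1, 5 without COS replicate 1, 6 without COS replicate 4 and 7 without COS replicate 2. The share of all genes called lower also fell below 28.6% in these fits, to 5.48%, 12.3%, 17.5%, 24.2% and 19.0% in the same order. All 9 genes were called lower without CES replicate 2, 3 or 4, where 33.0%, 33.4% and 31.9% of all genes were so. All 9 were also called after loess when CES replicate 2 was left out, where 17.1% of all genes were called lower. Over the alternatives fitted with limma, 26 for each gene but 24 for C5ar1, the adjusted p ran from 3.36e-06 to 0.044 for C5ar1, which was called in each. It ran from 5.37e-05 to 0.0682 for C1qc and reached at most 0.146 for C1qb and Serping1, 0.162 for C1s, 0.223 for C1r, 0.268 for C2, 0.325 for C3 and 0.516 for C1qa. None of the 9 genes was higher in CES under any alternative in which it was tested, 27 for each gene but 25 for C5ar1.

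**Figure D3:**
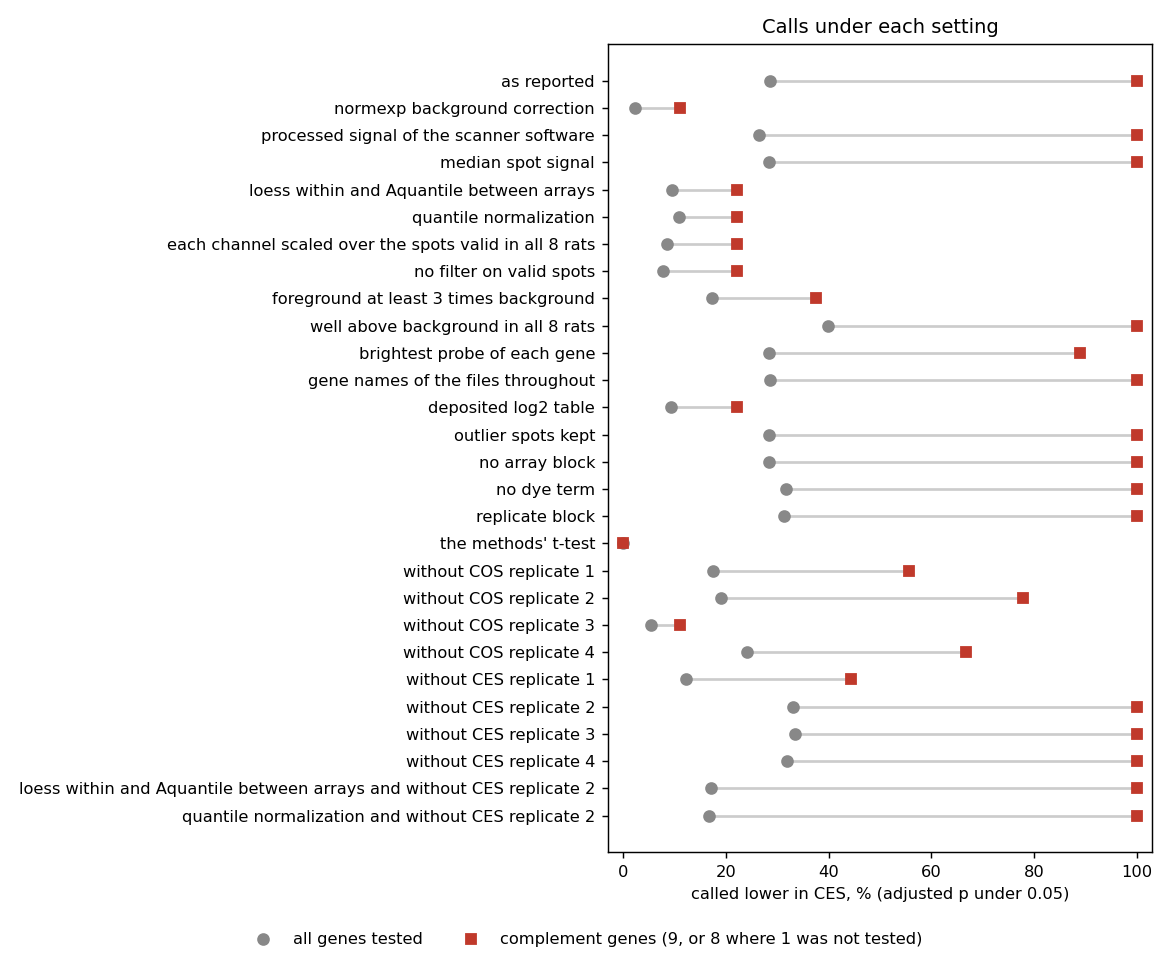
Share called lower in CES at an adjusted p under 0.05 (horizontal axis, in percent) among the complement genes (red squares) and among all genes tested (grey circles) under each setting named on the left. The complement genes lie above all genes in each setting but the methods' t-test. There, with p adjusted across all genes, both are at 0. The share runs from 0 to 9 of 9 genes.

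The upstream sequence of 4 of the 9 genes is held in the RefSeq promoter table (GRCr8). The 250 bases before the start of 3 of them are shown because the genes were all lower in CES and hold a match to a searched motif. Searched on both strands were the estrogen response element (the arm GGTCA and its inverted repeat with a spacer of 3 bases), the arm GGTCA alone (which the full element contains), AP-1 (TGANTCA), NF-kappa-B, C/EBP (TTGCGNAA), the interferon-stimulated response element, an ETS core (AGGAAG) and the TATA box (TATAAA). Capitals mark the matches.

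C1qb, chr5:154407828-154408077, minus strand: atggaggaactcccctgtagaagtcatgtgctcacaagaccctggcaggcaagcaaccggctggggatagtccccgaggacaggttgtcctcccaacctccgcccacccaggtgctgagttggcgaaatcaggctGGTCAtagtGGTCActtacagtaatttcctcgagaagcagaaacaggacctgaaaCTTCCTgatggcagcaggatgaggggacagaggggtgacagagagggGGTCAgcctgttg
C1r, chr4:159098763-159099012, plus strand: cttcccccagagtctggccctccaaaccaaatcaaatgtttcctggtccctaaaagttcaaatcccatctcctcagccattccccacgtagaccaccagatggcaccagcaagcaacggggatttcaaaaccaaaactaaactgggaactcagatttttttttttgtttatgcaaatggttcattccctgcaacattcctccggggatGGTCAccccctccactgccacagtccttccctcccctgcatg
C3, chr9:2201340-2201589, minus strand: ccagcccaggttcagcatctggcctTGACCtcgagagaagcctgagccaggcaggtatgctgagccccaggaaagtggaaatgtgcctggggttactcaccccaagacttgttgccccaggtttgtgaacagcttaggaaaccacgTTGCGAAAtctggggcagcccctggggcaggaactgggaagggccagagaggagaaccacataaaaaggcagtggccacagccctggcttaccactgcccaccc

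The single arm occurred in C1qb, C1r and C3, and it is present in 35.4% of the 33469 promoters of this length. C3 also held a C/EBP match, found in 0.729% of promoters, and C1qb an ETS core, found in 29.5%. C1qa held none of the 8 motifs, and the full estrogen response element, present in 0.0239% of promoters, was in none of the 4. A match of letters is a description and not a binding site.

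The rest of the complement system was taken as a list of 40 genes by role. Of these 36 were on the array and 23 were tested, the others having no spot valid in all 8 rats. Limma called 10 of the 23 lower and 1 higher in CES, beside 28.6% and 5.74% of all genes, and the median log2 difference was −0.50 against −0.25 for all genes. Without CES replicate 2 it called 12 lower and 2 higher, beside 33.0% and 8.7% of all genes. The directions of the 11 genes called held under every alternative in which they were tested.

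Among the initiators, which recognise sugars or aid C1, 2 of 5 genes were called lower. Fcnb, a ficolin of myeloid cells, differed by −2.01 (standard error 0.48, limma adjusted p = 0.0120), with 1.52 in COS replicate 1 and −1.17 to −0.42 in the other COS rats, against −3.06 to −1.87 in CES. The scanner software placed it well above background in 5 rats, 3 of COS. Colec11, a collectin of the lectin pathway, differed by −0.94 (standard error 0.22, adjusted p = 0.0107), with 2 rats of each group well above background. Masp1 went the other way and was not called with all rats (0.50, limma adjusted p = 0.0927). Without CES replicate 2 it was called higher (0.67, adjusted p = 0.0224).

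Of the convertase and alternative pathway components 3 of 4 were called lower in CES. Cfb, the protease of the alternative convertase, was at 2.17, 1.80, 2.13 and 1.61 in COS and at 0.37, 1.24, 0.73 and −0.27 in CES, a log2 difference of −1.41 (standard error 0.29, limma adjusted p = 0.00686). C4a differed by −1.0 (standard error 0.30, adjusted p = 0.0288), although no probe for its near-identical copy C4b was found and a probe may read both. Cfd, the protease that activates factor B, differed by −0.85 (standard error 0.19, adjusted p = 0.00972). Cfp, which encodes properdin, the stabiliser of the convertase, was not called (0.55, adjusted p = 0.0948).

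Of the 7 terminal components, which form the membrane attack complex, only C8b and C8g were tested, and neither was called. C8b was well above background in 0 rats and C8g in all 8.

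Of the soluble regulators, 5 were tested. Vtn, which encodes vitronectin, an inhibitor of the membrane attack complex and a matrix protein, was the only complement gene tested that was called higher in CES with all rats. It stood at 1.77, 1.36, 1.51 and 1.05 in COS and at 2.75, 1.88, 2.86 and 2.53 in CES, a log2 difference of 1.08 (standard error 0.19, limma adjusted p = 0.00451) with every CES rat above every COS rat. C4bpa, C4bpb and Clu were not called. The membrane regulator Cr1l, a rodent inhibitor of the C3 convertases, differed by −0.50 (adjusted p = 0.0547) and was called lower without CES replicate 2 (−0.60, adjusted p = 0.0231).

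Receptors gave the largest differences, with 4 of 6 tested genes called lower. Itgam and Itgb2 encode the chains of complement receptor 3, by which myeloid cells bind C3 fragments. Itgb2 was at 3.05, 2.72, 2.91 and 3.21 in COS and at −0.16, 2.38, 0.48 and 0.38 in CES, a log2 difference of −2.20 (standard error 0.41, limma adjusted p = 0.00527), and Itgam differed by −1.92 (standard error 0.45, adjusted p = 0.0108). Cd93, a surface protein of endothelial and myeloid cells once taken for a C1q receptor, showed the largest difference of its role, −2.25 (standard error 0.37, adjusted p = 0.00390). C3ar1, the receptor for C3a, differed by −0.78 (standard error 0.24, adjusted p = 0.0325), and 5 rats, 3 of COS, were well above background. Calr was not called, nor was C1qbp (−0.45, adjusted p = 0.0809), which was called lower without CES replicate 2 (−0.53, adjusted p = 0.0466).

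**Figure D4:**
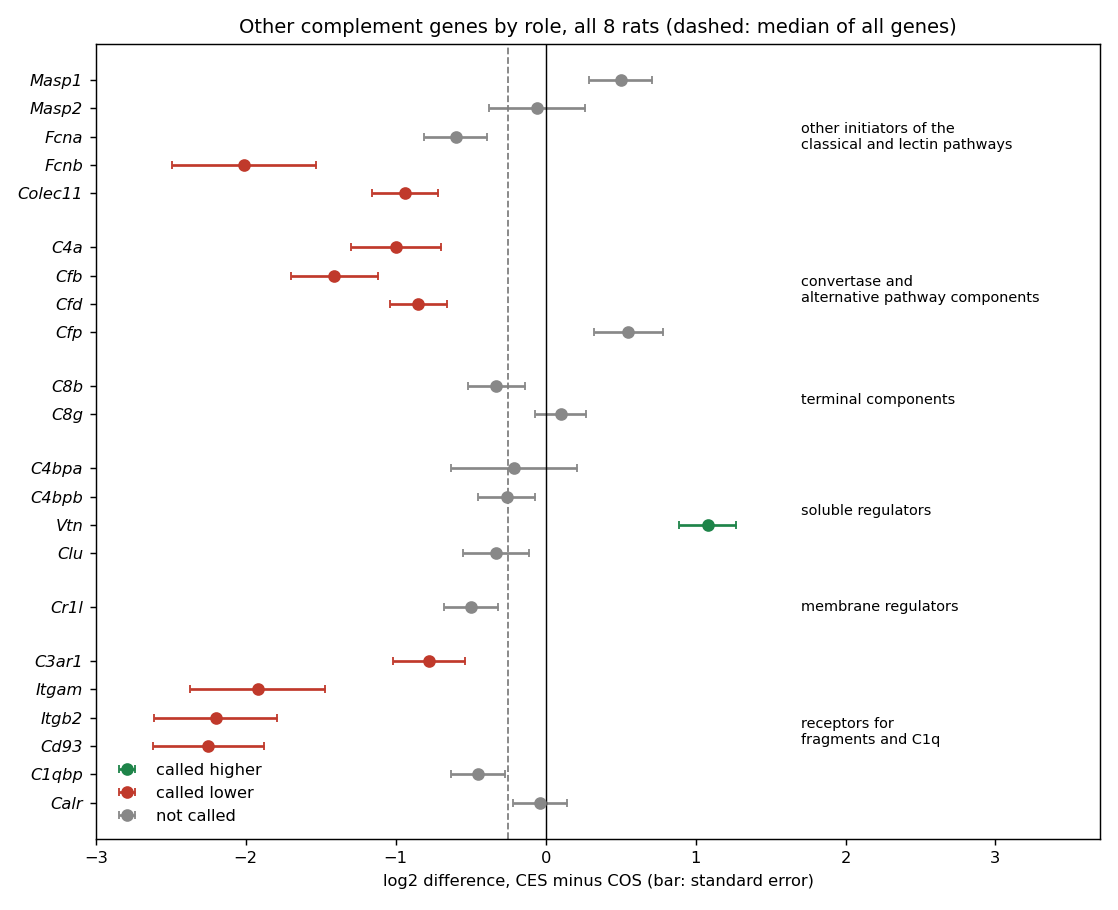
Log2 difference, CES minus COS, with its standard error (horizontal axis) for 22 of the 23 other complement genes tested, grouped by role, with called genes in red (lower, 9) or green (higher, 1), genes that were not called in grey, and the median of all genes as the dashed line at −0.25. The differences run from −2.25 for Cd93 to 1.08 for Vtn.

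Markers of the cells that make complement were read in the same rats. In tissue RNA, fewer cells of a type and less RNA per cell cannot be told apart. Of all genes tested 28.6% were called lower and 5.74% higher, and the counts of each marker list below stand beside these shares. Of 11 microglial markers 9 were tested. Tyrobp (−1.85, limma adjusted p = 0.00496) and Csf1r (−0.92, adjusted p = 0.00755) were lower in CES. P2ry12 (0.93, adjusted p = 0.00782) and P2ry13 (0.92, adjusted p = 0.0110) were higher, and Aif1, Cx3cr1, Tmem119 and Trem2 were among those not called. The summed microglial level, where 1 is the median valid spot, was 105 to 149 in COS and 77.8 to 106 in CES. Relative to the median gene of the same rat it was 63.6 to 75.1 in COS and 52.1 to 79.6 in CES, so the CES range enclosed that of COS. P2ry13 passed the background mark in CES replicates 2 and 4, both Cy5, although CES replicates 1 and 3 (Cy3) stood higher. Tmem119 passed it in 1 rat and Siglech in none.

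Of 9 markers of infiltrating myeloid cells and lymphocytes 3 were tested, and Lyz2 (−2.54, limma adjusted p = 0.00329), which activated microglia also express, and Plac8 (−2.18, adjusted p = 0.00805) were called lower. Their summed level, with Cd3e, was 64.2 to 120 in COS, 29.0 in CES replicate 2 and 8.34 to 15.8 in the other CES rats, and Lyz2 alone made up 85.3% to 94.9% of it. Ccr2 and Mpo were well above background in 0 rats. The neutrophil genes S100a8 and S100a9 were so in COS replicates 1, 2 and 4 and in CES replicate 2, and in no other rat. All of these but COS replicate 1 were Cy5 rats. The part of these cells in the complement differences was not tested.

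Of 8 astrocyte markers Aldh1l1 (1.23, limma adjusted p = 0.00597) and Gja1 (1.42, adjusted p = 0.0240) were called higher in CES. S100b was called lower (−2.25, standard error 0.77, adjusted p = 0.0454), but its groups overlapped, at 0.15 to 3.34 in COS and −1.85 to 2.63 in CES. The other 5 were not called, among them Gfap (−1.22, adjusted p = 0.0531). The summed level of the astrocyte markers overlapped between the groups, 178 to 196 in COS and 151 to 232 in CES. Endothelial markers gave 2 lower (Vwf, −2.01, and Flt1, −1.04) and 1 higher (Slco1a4, 0.72) of 5 tested. Choroid plexus markers were called in neither direction, and their summed level spread from 13.4 to 634 in COS and from 17.0 to 204 in CES, highest in COS replicate 2 and in CES replicates 2 and 4. The remaining lists gave 3 lower (Dsp, C1ql2 and Tdo2) and 1 higher (Neurod1) of 6 dentate granule neuron markers, Tdo2 with no rat well above background, 0 of 6 oligodendrocyte markers, and 1 lower (Col1a2) and 1 higher (Dcn) of 5 meningeal fibroblast markers. Without CES replicate 2, 5 more markers were called. Gfap (−1.56, limma adjusted p = 0.00908), Cx3cr1 (−0.54, adjusted p = 0.0428) and the endothelial Cdh5 (−0.60, adjusted p = 0.0335) were lower. The astrocyte gene Slc1a2 (0.53, adjusted p = 0.0385) and the oligodendrocyte gene Cnp (1.16, adjusted p = 0.0411) were higher. Of all genes 33.0% were then called lower and 8.7% higher.

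**Figure D5:**
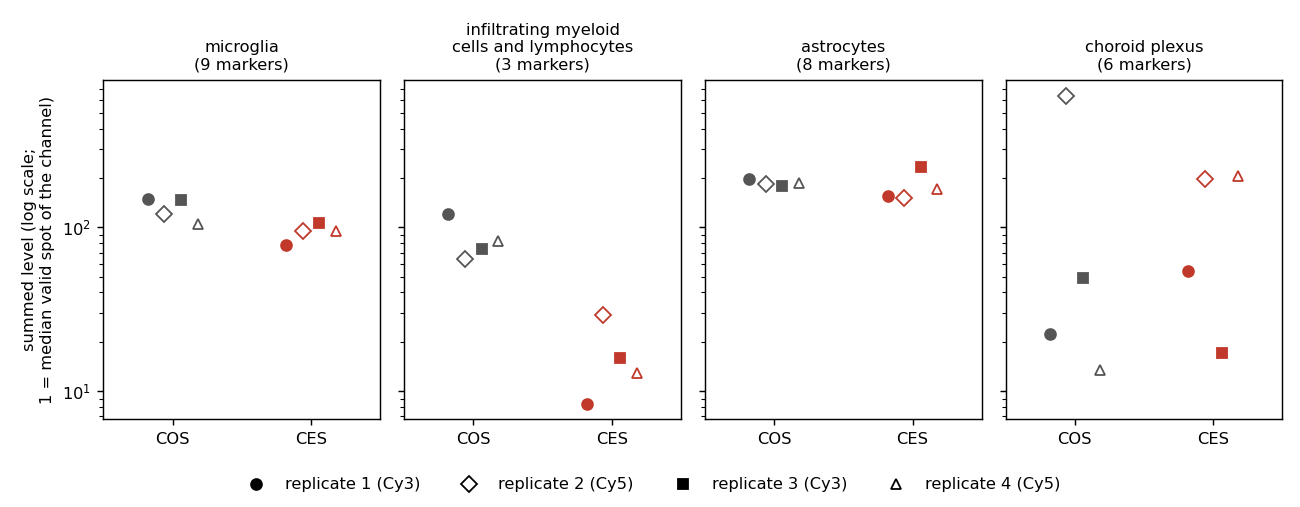
Summed level of the tested markers of 4 cell types in each rat (vertical axis, log scale, 1 = median valid spot of the channel), COS in grey and CES in red, filled for Cy3 and open for Cy5. Markers of infiltrating cells, mostly Lyz2, are at 64.2 to 120 in COS and at 8.34 to 29.0 in CES, with CES replicate 2 the highest CES rat. Astrocyte and choroid plexus markers overlap between the groups. Microglial markers overlap on this scale only through CES replicate 3 (106) and COS replicate 4 (105). Relative to the median gene of each rat (not plotted) they overlap fully, at 63.6 to 75.1 in COS and 52.1 to 79.6 in CES.

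For the 8 complement genes well above background in every rat, the genes with the most similar profile were found by the root mean square difference of mean-centred log2 levels over the 8 rats, among 13178 other genes. C2 and C3 were each the 4th nearest gene to the other (0.12), and C1s was the 3rd nearest to C1r (0.19), after Eci3 (0.15) and RT1-A2 (0.17). Nearest to C3 were Csf1 (0.10), Lyn (0.11) and Oma1 (0.11). C2 had RT1-CE1 (0.11), Mmgt2 (0.12) and a transcript without a gene symbol, and Serping1 had Mmgt2 (0.07), Serpinh1 (0.10) and RGD1304982 (0.11). Casp1 (0.14) and Lmna (0.15) were nearest to C1s, besides a probe without a symbol. The C1q chains lay further apart, with a distance of 0.30 between C1qb and C1qc, 0.32 between C1qa and C1qb and 0.52 between C1qa and C1qc. C1qa had Spin1 (0.13) and Pold4 (0.14), C1qb had Ezr (0.13), Uck2 (0.15) and Azin1 (0.15), and C1qc had Pnoc (0.12), with transcripts without a symbol besides for C1qa and C1qc. The median over all genes of the distance lay between 0.526 and 0.905 for the 8 genes, and all share the group difference and the dye, so closeness describes only these 8 rats.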

How the data were processed

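Total RNA from the DG of 8 rats, 4 COS and 4 CES, was hybridised to 4 two-colour arrays on a single slide, and the sample records gave the group, replicate number and dye of each rat. Spot intensity and local background intensity were deposited by the authors for both channels, extracted with Agilent Feature Extraction 10.7.3.1 (named in the submitters' processing notes), together with a processed intensity and marks of 0 or 1 of another kind set by the software. They also deposited log2 values, which equal the log2 of the median signal minus background relative to the channel, and these served as an alternative. Probe positions are those of the files (rn4). The non-SE groups were not analysed here, and the values of 2 listed genes are not reported here, although counts and sums over their lists include them.

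The background median was subtracted from the mean signal, and the result was scaled to the median of valid spots (foreground at least 2 times background) sharing its label and array. Of a gene, the spots valid in every rat (26294 spots over all genes) were averaged and taken to log2. Control spots were left out, as were 1593 spots that the software marked as outliers in at least 1 channel, none of them a complement spot. Valid spots numbered 30690 to 38553 per rat, and the number of arrays limits the precision, with a median standard error of 0.20. Names other than those of the complement genes were updated through RefSeq accessions, which matched 17512 of 41012 probes.

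The groups were compared with limma 3.58.1 (R 4.3.3, lmFit and eBayes, two-sided), fitting dye as a fixed effect and array as a random block (duplicateCorrelation, statmod 1.5.0, within-array correlation −0.0104). P-values were adjusted after Benjamini-Hochberg across every gene tested, with a threshold of 0.05. Array and group cannot be told apart except through that block. The fit was tested on simulated data. Same-numbered rats deviated together from their group means (correlations 0.333, 0.214, 0.306 and 0.346), but the number also sets the dye, and rats of one dye with different numbers did so too (0.441 for COS replicate 1 and CES replicate 3). Levels and plots were made in Python 3.11.15 with numpy 2.4.6, pandas 2.3.3 and matplotlib 3.10.9, besides R with data.table v1.17.8.

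The complement genes, the other gene lists and the tests were chosen with earlier results of these data known. Other genes are named where they were called, differed most within their role, define a cell type or had the nearest profile. Alternatives covered background correction (normexp, offset 50), signal, normalization, filters (foreground at least 3 times background), probes, names, test, blocks and leaving out each rat. The methods' t-test is the one with unequal variances. The study corrected its p-value only for redundant spots of a gene and also required a fold-change cut-off for each gene. Here it was instead adjusted across all genes, with no such cut-off, so its calls are not those of the study's rule. Keeping outlier spots, and 2 normalizations without CES replicate 2, were added after seeing the data. The records name the 4 samples of a group as separate replicates, and the p-values measure only the spread between them.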

Additional observations from a re-analysis of the deposited data

Results flagged for a closer look

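Of 64 groups of 4 rats examined (the 9 complement genes and the other complement genes tested, in each group), 1 held a rat far from the others, and chance alone gives about 1 in 20 such groups, or 5%. It was C4bpa, a chain of the C4-binding protein, in CES, where replicate 1 stood at a log2 level of −2.44 and the others at −1.96, −1.92 and −1.91. The gap was 0.897 of the whole range of the group. C4bpa is dim, well above background in 3 rats, 2 of them of CES, and its COS levels ran more widely, from −3.36 to −0.63. It was not called in the comparison of CES with COS.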

How the results depend on the processing

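All 9 genes kept their direction, and lay below the median of all genes, in each of the 27 alternatives that tested them (25 for C5ar1, which the stricter filter and the filter on genes well above background left out). Their log2 differences ranged from −1.06 to −0.46 for C1qa and from −3.06 to −1.34 for C5ar1. Instead of 9, the number called lower was 1 with normexp (2.36% of all genes), 2 with loess (9.43%), quantile normalization (10.8%), a common set of spots for scaling (8.56%), no filter on spots (7.85%) or the deposited log2 values (9.4%), and 3 of 8 with foreground at least 3 times background (17.3%). With the brightest probe of each gene it was 8 (28.3%), C1qa not being called (−0.77, limma adjusted p = 0.071). The methods' t-test called 0 genes of any kind after adjustment, although all 9 had an unadjusted p under 0.05, as did 5909 genes (9425 with limma). Leaving out 1 rat gave 1 to 9 lower and 0 higher. Of the 23 other complement genes, 10 lower and 1 higher became 2 and 0 with normexp, 3 and 3 with loess, quantile, common scaling or the deposited log2 values (21 genes), and 0 and 0 with the t-test, while 4 of 36 were lower without the filter and 5 of 16 with the stricter one, and 2 were higher among 14 genes well above background or with the brightest probe (of 23). With loess or quantile normalization and without CES replicate 2 they were 6 and 4. Loess then called 17.1% of all genes lower and 19.7% higher. With all rats, loess and quantile normalization each called 14.5% of all genes higher. Leaving out 1 rat gave 2 lower (COS replicate 3, 5.48% of all genes), 4 (CES replicate 1, 12.3%) and up to 13 (CES replicate 3, 33.4%). It gave 1 to 2 higher (2 without COS replicate 2 or CES replicate 2). Over all genes, common scaling called 1783 lower and 3384 higher and moved the median to 0.14, and the deposited log2 values gave 1927 and 3213, with a median of 0.12. The replicate block, which pairs same-numbered rats, called 9 of the 9 genes lower and changed no count of calls in either list. The cause of these shifts was not tested. Dim spots limit C5ar1, which was well above background in 2 of 4 CES rats, both Cy5.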
